A study of Mus musculus with 2 samples.

Results

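The secreted modulators of Wnt signalling comprised 10 genes of the 33696 in the count tables: Sfrp1, Sfrp2, Sfrp4, Frzb, Wif1, Dkk2, Dkk3, Sost, Wnt2 and Rspo3. They were taken by symbol alone, and all 10 were present in the tables of both libraries. Their levels were compared across smooth muscle cells, 3 classes of fibroblasts and arterial endothelial cells of the mouse abdominal aorta. The Control library came from male C57BL/6J mice, 5 months old, that received saline. The AngII+HS library came from male C57BL/6J mice of the same age infused for 28 days with angiotensin II at 1500 ng/kg/min from implanted minipumps, with 0.9% NaCl and 0.2% KCl in the drinking water, a model of abdominal aortic aneurysm. No gene was deleted and no transgene was carried in either group. According to the design text, tissue of 5 mice was pooled for each library, whereas the protocol in the labels speaks of 1 control and 2 treated mice. With 1 library per condition there was no replicate, no p-value could be given, and all intervals below cover counting error only.

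Wnt proteins are secreted ligands that bind Frizzled receptors, with LRP5 or LRP6 as co-receptors, and in the canonical branch this stabilises β-catenin in the receiving cell. Secreted frizzled-related proteins (Sfrp1, Sfrp2, Sfrp4 and Frzb) and Wif1 bind the Wnt ligands themselves, while Dickkopf proteins such as Dkk2 and the sclerostin encoded by Sost bind the LRP co-receptors. Sost is best known from osteocytes, where its protein restrains bone formation, and it is also transcribed in vascular smooth muscle. Dkk3 is a divergent Dickkopf family member, Wnt2 is a ligand, and Rspo3 encodes an R-spondin. R-spondins amplify Wnt signalling through LGR receptors, by limiting the clearance of Frizzled by RNF43 and ZNRF3.

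The 10 genes lie at separate places in the mouse genome. On GRCm39, Sost (ENSMUSG00000001494) spans chr11:101853284-101857847 on the minus strand and Sfrp1 chr8:23901263-23939648 on the plus strand. Frzb spans chr2:80242313-80278304 (minus), Sfrp2 chr3:83673481-83681623 (plus) and Dkk2, on the same chromosome, chr3:131790336-131886065 (plus). Promoter windows of 300 bases, from 250 bases before to 50 bases after the annotated start, were read from RefSeq on GRCm38.p6 for the 6 members that matched, Sfrp2, Frzb, Dkk2, Sost, Wif1 and Wnt2. The windows printed here are those of Sost, the member with the most UMIs in smooth muscle, of Frzb, which differed in both fibroblasts and arterial endothelium, and of Dkk2, which was held by a distinct arterial subcluster. They lie at chr11:101966966-101967265 (minus strand), chr2:80447347-80447646 (minus strand) and chr3:132085042-132085341 (plus strand), are written 5′ to 3′ along the gene, and have a TATAAA match in capitals.
Sost: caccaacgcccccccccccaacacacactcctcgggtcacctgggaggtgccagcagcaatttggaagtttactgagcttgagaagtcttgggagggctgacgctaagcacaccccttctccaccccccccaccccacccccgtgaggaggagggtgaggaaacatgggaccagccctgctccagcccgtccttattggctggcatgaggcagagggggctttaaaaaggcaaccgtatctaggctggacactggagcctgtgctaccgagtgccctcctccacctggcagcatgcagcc
Frzb: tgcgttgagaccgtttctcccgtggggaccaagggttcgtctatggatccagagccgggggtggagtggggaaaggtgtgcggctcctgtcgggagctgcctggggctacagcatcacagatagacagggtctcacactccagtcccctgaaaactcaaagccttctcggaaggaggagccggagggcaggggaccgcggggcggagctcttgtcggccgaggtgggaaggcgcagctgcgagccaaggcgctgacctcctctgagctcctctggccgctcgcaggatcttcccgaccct
Dkk2: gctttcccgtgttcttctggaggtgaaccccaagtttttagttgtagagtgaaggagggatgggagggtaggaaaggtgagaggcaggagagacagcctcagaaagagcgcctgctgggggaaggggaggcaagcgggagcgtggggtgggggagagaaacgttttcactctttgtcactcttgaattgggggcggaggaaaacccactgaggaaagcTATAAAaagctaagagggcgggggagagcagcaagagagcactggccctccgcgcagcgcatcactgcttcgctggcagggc
The Sost window had 62% G and C and 7 CpG pairs, against 64.7% and 20 for Frzb and 57.7% and 11 for Dkk2, and the medians over all 32851 windows of the table were 52.7% and 7. Of 4 motifs searched on both strands, the TCF/LEF letters CTTTGAA were in 5.14% of all windows, CTTTGAT in 3.73%, the CArG box in 1.63% and TATAAA in 13.6%. Dkk2 held TATAAA at 32 bases before its start, as coded -32, and Wif1 held it on the opposite strand, and the windows of Sost, Frzb, Sfrp2 and Wnt2 held none of the 4. These matches describe letters in a window and nothing about binding.

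The Control library held 11448 barcodes and 86618995 unique molecular identifiers (UMIs, each marking 1 captured RNA molecule), and the AngII+HS library 24804 barcodes and 117146856 UMIs. After filters and doublet removal 10269 and 19734 cells remained, with a median of 7274 and 3065 UMIs per cell, and 67 barcode sequences occurred in both libraries. The barcode list filed with each library fitted in length the count matrix of its counterpart. Libraries were kept as their labels name them, and an exchange of the matrices would reverse each direction given here. Smooth muscle cells made up 52.2% of retained Control cells and 4.24% of retained AngII+HS cells, that is 5363 and 836 cells. Pi16/Dpp4 fibroblasts, an adventitial class named by Pi16, Dpp4 and 5 further markers, numbered 763 and 722 cells. Postn/Cthrc1 fibroblasts, a matrix-producing class, numbered 92 and 1217, the other fibroblasts 1054 and 1765, and arterial endothelial cells 488 and 381. The smooth muscle label held against its markers (Acta2 13067 and 18160 CPM, Myh11 3273 and 2757 CPM, where CPM is UMIs of the gene per 1000000 UMIs of the cell group), as did the arterial label (Gja5 550 and 546 CPM, Cdh5 873 and 970 CPM). The Postn/Cthrc1 label did not hold in Control, where Postn stood at 24.7 and Cthrc1 at 12.4 CPM beside 785 CPM of Pi16, against 472, 156 and 223 CPM in AngII+HS, so ratios in this class set unlike cells side by side. The Pi16/Dpp4 label held in part. When fibroblasts were clustered again, Dpp4 in this class lay mainly in subcluster 6 (157 and 109 cells), at 157 and 120 CPM. Subcluster 1, with most cells of the class (606 and 613), had 889 and 884 CPM of Pi16 but 3.97 and 4.14 CPM of Dpp4. T and B cells served as a gauge of free RNA in the droplets, on the assumption that they do not make these proteins. For Dkk3 the gauge differed between T cells (18.5 and 20.8 CPM) and B cells (0 and 7.76 CPM). Neutrophils of the AngII+HS library stood above this gauge, with 65.0 CPM of Sost, 43.0 CPM of Sfrp2 and 37.5 CPM of Sfrp4 against 36.1, 29.8 and 20.9 CPM. Macrophages there stood below it, with 18.8, 19.4 and 14.4 CPM, so the gauge was not even across cell types.

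The Wnt modulators were divided between the cells of the aortic wall. In Control, smooth muscle cells held 98.1% of all Sost UMIs, 98.7% of Wif1, 87.0% of Dkk3, 71.1% of Rspo3 and 57.0% of Frzb. They also held 54105747 of the 75294050 Control UMIs of all genes. As a level, Rspo3 and Frzb were lower in smooth muscle cells (11.1 and 11.9 CPM) than in other fibroblasts (31.7 and 45.0 CPM) of Control. Arterial endothelial cells, 4.75% of Control cells, held 54.8% of Sfrp1 UMIs and 45.0% of Dkk2, and the 3 fibroblast classes together 63.1% of Sfrp2, 84.3% of Sfrp4 and 66.2% of Wnt2. In AngII+HS, where smooth muscle cells were few, they still held 78.8% of Sost and 66.8% of Wif1 UMIs, but 26.7% of Dkk3, 8.52% of Rspo3 and 3.19% of Frzb. The fibroblast classes there held 77.7% of Sfrp1, up from 29.4%, and the Postn/Cthrc1 class alone held 39.6% of Rspo3. Summed over all retained cells, Sost stood at 754 and 160 CPM and Wif1 at 13.4 and 3.82 CPM, while Sfrp1 stood at 42.4 and 335 CPM and Sfrp4 at 63.2 and 541 CPM. These sums mix the level within a cell type with the share of that cell type, so the cell groups are described apart.

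**Figure D1:**
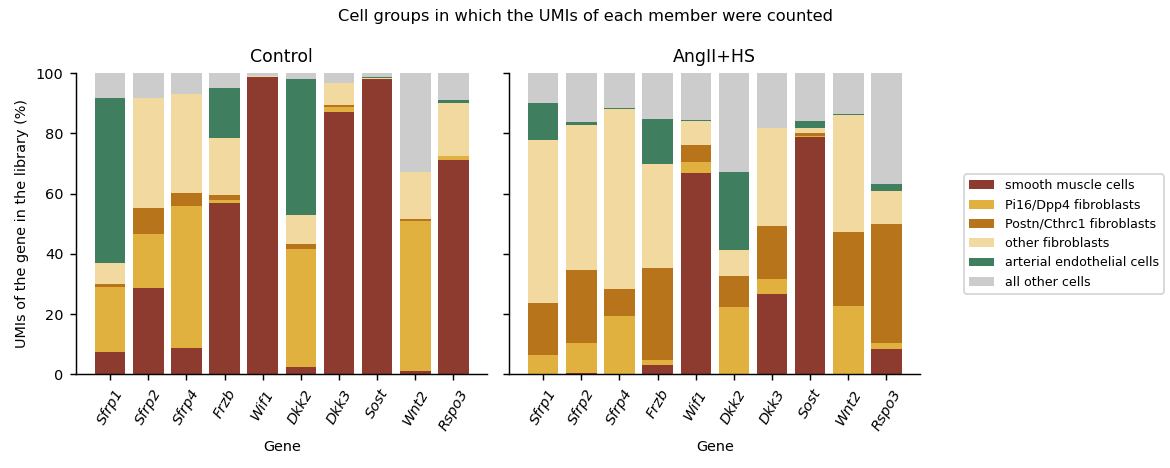
Stacked bars give, for each of the 10 genes on the x axis, the percentage of its UMIs in the library that was counted in each cell group, with Control on the left and AngII+HS on the right. Smooth muscle cells held 98.1% and 78.8% of Sost UMIs, and other fibroblasts 6.98% and 54.4% of Sfrp1 UMIs.

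Within smooth muscle cells, Sost had the highest level of the 10 modulators in both libraries, and that level was higher after AngII+HS. Sost stood at 1030 CPM in Control (55725 UMIs) and 1711 CPM in AngII+HS (10172 UMIs), a 1.66-fold difference (log2 ratio 0.73, 95% interval 0.70 to 0.76). The T and B cells of the same libraries held 26.8 and 36.1 CPM of Sost, far below both. Sost thus lay under the 2-fold threshold although its interval excluded 0. Merging the libraries without integration, which left 1670 Control and 774 AngII+HS cells in the group, lowered the log2 ratio of Sost to 0.34. Dkk3 had 152 and 239 CPM (log2 ratio 0.66, interval 0.57 to 0.74), and Wif1, which codes for Wnt inhibitory factor 1, had 18.5 and 34.5 CPM (0.90, interval 0.68 to 1.12). The Wif1 ratio was 0.07 after merging without integration. Frzb (11.9 and 22.7 CPM, log2 ratio 0.93) and Rspo3 (11.1 and 16.5 CPM, log2 ratio 0.57) were also somewhat higher in AngII+HS. Sfrp2 went the other way, with 70.4 CPM in Control (3810 UMIs) and 35.1 CPM in AngII+HS (209 UMIs), a log2 ratio of -1.003 (interval -1.21 to -0.80), and the AngII+HS value was close to the 29.8 CPM of T and B cells there.

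Of the 10 genes, 8 had at least 20 UMIs in smooth muscle cells, the minimum for a ratio to be read. Among them 2 were past 2-fold higher, 1 was past 2-fold lower and 5 were past neither, where 17.5% of the 15591 genes read in these cells were past 2-fold, 5.41% higher and 12.1% lower. The median log2 ratio was -0.07 over all genes and 0.82 over these 8 members. The 2 higher genes, Sfrp1 (4.45 and 11.6 CPM) and Sfrp4 (7.82 and 16.8 CPM), stood in AngII+HS below the T and B cells of that library (18.9 and 20.9 CPM). In Control they stood above the T and B cells (0 and 1.07 CPM), so only their AngII+HS values were read as background. After subtraction of the free RNA neither gene had a UMI left in AngII+HS. Their log2 ratios of -3.14 and -3.74 were then set by the floor of 3 UMIs and are no measure of a change. Sfrp2 lay at the threshold itself, and its log2 ratio ran from -3.64 with free RNA subtracted to -0.69 merged without integration. Without doublet removal 1 member in place of 3 was past 2-fold. Dkk2 (8 and 1 UMIs) and Wnt2 (3 and 0 UMIs) were near the floor in smooth muscle. Fibroblast markers moved with these values in sum, since the 5 markers Dcn, Lum, Col1a1, Col3a1 and Pdgfra summed to 1574 CPM in Control and 3724 CPM in AngII+HS smooth muscle cells. Most of the sum was Col1a1 (539 and 1468 CPM) and Col3a1 (1007 and 2133 CPM). Dcn (18.8 and 77.7 CPM) and Lum (3.51 and 40.9 CPM) were also higher, but Pdgfra was not (5.38 and 4.37 CPM). The part of these markers in the ratios was not tested.

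**Figure D2:**
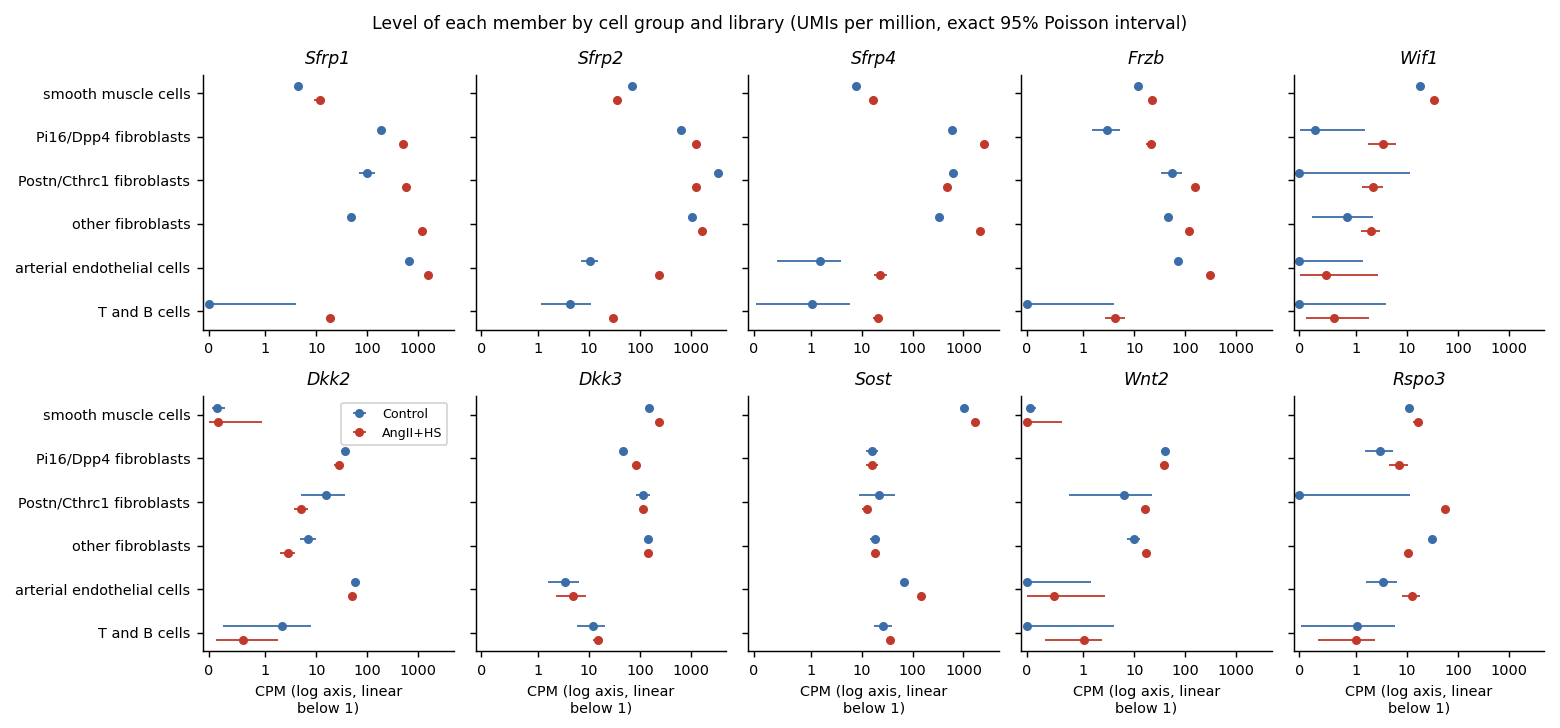
Each panel gives the level of 1 gene in CPM (x axis, logarithmic above 1 and linear below) in the 5 cell groups and in T and B cells, with blue points for Control, red for AngII+HS and lines for exact 95% Poisson intervals. Sost stood at 1030 and 1711 CPM in smooth muscle cells and between 12.7 and 21.6 CPM in the fibroblast classes, below the 26.8 and 36.1 CPM of T and B cells.

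The difference in Sost was not even across the smooth muscle cells. When these were clustered again, the subcluster led by Rbp4 (number 0, 1642 Control and 247 AngII+HS cells) held 1054 and 2065 CPM of Sost, a log2 ratio of 0.97 (0.92 to 1.02). Subcluster 1, led by Actn2 and Emb and the richest in Sost in Control, held 1468 and 1636 CPM, with a log2 ratio of 0.16 (0.09 to 0.22). Subcluster 2, led by Cxcl1 and Tnfaip3, held 747 and 1619 CPM, a log2 ratio of 1.12. The interval of subcluster 2 in AngII+HS overlapped that of subcluster 1, which it did not in Control. Subcluster 3, led by Sparcl1 and Thbs1, had 878 and 1173 CPM (0.42), and subcluster 4, of lower depth and led by Igkc and Fgf14, 849 and 1652 CPM (0.96). Sost was lower in AngII+HS in subcluster 7, led by Vcam1, with 702 and 315 CPM from 51 and 18 cells, and the unnamed subcluster 6 had 844 and 752 CPM from 88 and 6 cells (-0.17, interval -1.52 to 0.93), while subcluster 5 had 390 and 3197 CPM but just 6 AngII+HS cells. Weighting the subclusters as in Control left the log2 ratio of Sost at 0.73, and leaving out the subcluster led by Igkc and Fgf14 also left it at 0.73, both alternatives being chosen after the data were seen.

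Dkk3 and Wif1 followed different subclusters. Dkk3 was higher in AngII+HS in each of subclusters 0 to 4, from a log2 ratio of 0.46 in subcluster 1 (181 and 249 CPM) to 1.10 in subcluster 3 (103 and 221 CPM). Wif1 was richest in subcluster 1, with 43.4 and 62.9 CPM, which is also named by this gene among its leading ones. In subcluster 0 it had 14.8 and 42.2 CPM (log2 ratio 1.51, interval 1.16 to 1.85) and in subcluster 2 10.8 and 31.2 CPM. Subcluster 3 held few Wif1 molecules in either library (40 and 2 UMIs). Sfrp2 was lowest after AngII+HS in subcluster 3 (77.3 and 5.46 CPM) and nearly level in subcluster 1 (54.2 and 51.1 CPM, log2 ratio -0.09, interval -0.46 to 0.27). The 5.46 CPM lay below the 29.8 CPM of T and B cells in AngII+HS, so that gauge was no floor for smooth muscle cells.

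Cell by cell, Sost was spread over most smooth muscle cells rather than a few. A Sost UMI was found in 92.6% of Control and 76.4% of AngII+HS smooth muscle cells, whose median depth was 9742 and 6862 UMIs. When every cell was thinned to 1000 UMIs, 54.9% (interval 53.5 to 56.2) of 5354 Control cells and 60.5% (57.0 to 63.9) of 787 AngII+HS cells had at least 1 Sost UMI, so the order of the shares turned once depth was equal. T and B cells, with median depths of 3779 and 2130.5 UMIs, had 10.9% and 8.17% before thinning and 4.41% and 4.02% after it. The larger change was among cells with much Sost, since 5 or more of 1000 UMIs were Sost in 2.39% (1.998 to 2.84) of Control and 10.5% (8.49 to 12.9) of AngII+HS cells. The richest 10% of cells held 32.2% of Sost UMIs in Control and 38.3% in AngII+HS, with up to 107 and 94 UMIs in a cell. Wif1, by contrast, was in 1.89% and 2.79% of thinned cells (12.3% and 13.9% before thinning), a level at which a change in share cannot be told.

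**Figure D3:**
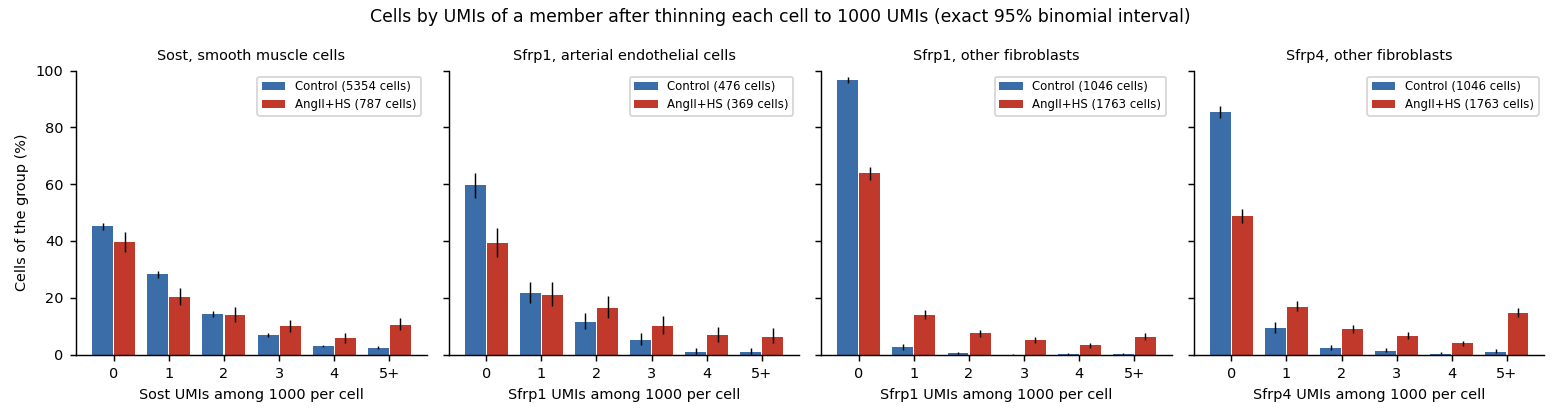
Bars give the percentage of cells (y axis) with 0 to 4 and with 5 or more UMIs of a gene after each cell was thinned to 1000 UMIs, for Sost in smooth muscle cells, Sfrp1 in arterial endothelial cells and Sfrp1 and Sfrp4 in other fibroblasts, with exact 95% binomial intervals. Cells with 5 or more Sost UMIs made up 2.39% in Control and 10.5% in AngII+HS, and cells with no Sfrp1 UMI among other fibroblasts 96.8% and 63.9%.

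In fibroblasts, 3 of the 4 secreted frizzled-related proteins were past 2-fold higher in AngII+HS. Over the 3 classes together, Sfrp1 stood at 107 CPM in Control and 883 CPM in AngII+HS, an 8.25-fold difference (log2 ratio 3.04, interval 2.95 to 3.14). Sfrp4 had 457 and 1616 CPM (3.54-fold, log2 ratio 1.82), Frzb 27.6 and 119 CPM (4.32-fold, 2.11) and Sfrp2 959 and 1480 CPM (1.54-fold, 0.63). All 10 members were read here, 4 past 2-fold higher (Sfrp1, Sfrp4, Frzb and Wif1) and 1 lower (Dkk2), where 16.7% of genes were past 2-fold, 7.30% higher and 9.42% lower. Wif1 in these cells rested on 5 and 53 UMIs, at 0.570 and 2.24 CPM. Ratios over the 3 classes together mix the level within a class with the share of that class. Frzb was 2.82-fold higher in Postn/Cthrc1 and 2.66-fold higher in other fibroblasts, and 7.26-fold higher in Pi16/Dpp4 fibroblasts on 11 and 70 UMIs.

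Sfrp1 had its steepest ratio in the fibroblasts that belonged to neither named class. In these other fibroblasts it had 47.1 CPM in Control (223 UMIs) and 1198 CPM in AngII+HS (14628 UMIs), 25.5-fold, with a log2 ratio of 4.67 (4.48 to 4.87). With the number of removed doublets doubled, which also left only 236 and 274 cells in the class, the log2 ratio was 2.18. Much of the level lay in subcluster 3, which held 292 CPM in 88 Control cells and 2187 CPM in 766 AngII+HS cells, while subcluster 0 had 15.0 and 188 CPM and subcluster 4 28.6 and 150 CPM. Each had a smaller ratio than the class, with 7.50-fold in subcluster 3, 12.5-fold in subcluster 0 and 5.23-fold in subcluster 4. The class ratio thus mixes level with the share of subcluster 3, which was 88 of 1054 Control and 766 of 1765 AngII+HS cells. Sfrp1 is among the leading genes of subcluster 3, although it was kept out of the variable genes, and its level there is a description. Subcluster 3 scored best for the Postn/Cthrc1 markers, at 0.43, just under the 0.5 asked of a class. It held 298 and 455 CPM of Postn and 22.1 and 128 CPM of Cthrc1, so it was not free of that program. In thinned cells, 3.15% of Control and 36.1% of AngII+HS other fibroblasts had an Sfrp1 UMI (8.92% and 58.9% before thinning, at median depths of 4154 and 6118 UMIs), and 0% (0 of 227, exact upper limit 1.61%) and 1.69% of T and B cells did. Pi16/Dpp4 fibroblasts held 184 and 500 CPM (log2 ratio 1.44, interval 1.31 to 1.57), and Postn/Cthrc1 fibroblasts 98.9 and 565 CPM (2.51, interval 2.01 to 3.06). Merging the libraries without integration, which put 736 Control and 331 AngII+HS cells in the Pi16/Dpp4 class, left its Sfrp1 log2 ratio at 0.03. Sfrp1 was higher in AngII+HS in each of the 6 fibroblast subclusters of these classes that had cells in both libraries.

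Sfrp4, also abundant in these cells, was higher in AngII+HS in the Pi16/Dpp4 and the other fibroblasts. Pi16/Dpp4 fibroblasts had 605 and 2577 CPM of it, a 4.26-fold difference (log2 ratio 2.09, interval 2.02 to 2.16), and other fibroblasts 330 and 2134 CPM, 6.46-fold (2.69, interval 2.62 to 2.77). In the Postn/Cthrc1 class it had 618 and 467 CPM (log2 ratio -0.40, interval -0.61 to -0.19), and in the subcluster of that class shared by both libraries 618 and 562 CPM (-0.14, interval -0.35 to 0.08). This direction did not hold, since the log2 ratio in the class was 1.16 at resolution 1.2, 1.30 with doubled doublet removal and 2.32 with subclusters at resolution 0.8, where 14 Control cells were left. The highest level was in subcluster 3, with 1247 and 3134 CPM. After thinning, 14.5% and 51.2% of other fibroblasts had an Sfrp4 UMI (30.1% and 75.8% before), against 0% and 2.38% of T and B cells. Merging the libraries without integration, with 736 Control and 331 AngII+HS cells in the Pi16/Dpp4 class, left its Sfrp4 log2 ratio at 0.53, below 2-fold.

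Sfrp2 was abundant in all fibroblasts and split by class. It stood at 650 and 1279 CPM in Pi16/Dpp4 fibroblasts (log2 ratio 0.98, interval 0.90 to 1.05) and at 1030 and 1681 CPM in other fibroblasts (0.71, interval 0.66 to 0.75). In Postn/Cthrc1 fibroblasts it was lower in AngII+HS, with 3448 CPM in 92 Control cells and 1263 CPM in 1217 AngII+HS cells (log2 ratio -1.45, interval -1.54 to -1.36). The ratio was -0.28 at resolution 0.4 and -0.05 with doubled doublet removal, which put 448 Control cells in the class. The class in AngII+HS included subcluster 7, led by Mmp13 and Spp1, which had no Control cell and held 61.7 CPM of Sfrp2. In the remaining subcluster 2, led by Thbs2, Col11a1 and Comp, Sfrp2 had 3448 and 2051 CPM (log2 ratio -0.75). In subcluster 0, of the other fibroblasts, Sfrp2 had 796 and 2142 CPM (1.43, interval 1.37 to 1.49).

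Frzb, which encodes sFRP3, was higher in AngII+HS in all 3 classes. It had 2.97 and 21.5 CPM in Pi16/Dpp4 fibroblasts (11 and 70 UMIs, log2 ratio 2.86, interval 1.93 to 3.93), 55.7 and 157 CPM in Postn/Cthrc1 fibroblasts (1.496, interval 0.83 to 2.26) and 45.0 and 120 CPM in other fibroblasts (1.41, interval 1.202 to 1.63). T and B cells held 0 and 4.26 CPM. Merging without integration, which left 1 Control cell in the Postn/Cthrc1 class, turned its ratio there to -1.37.

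**Figure D4:**
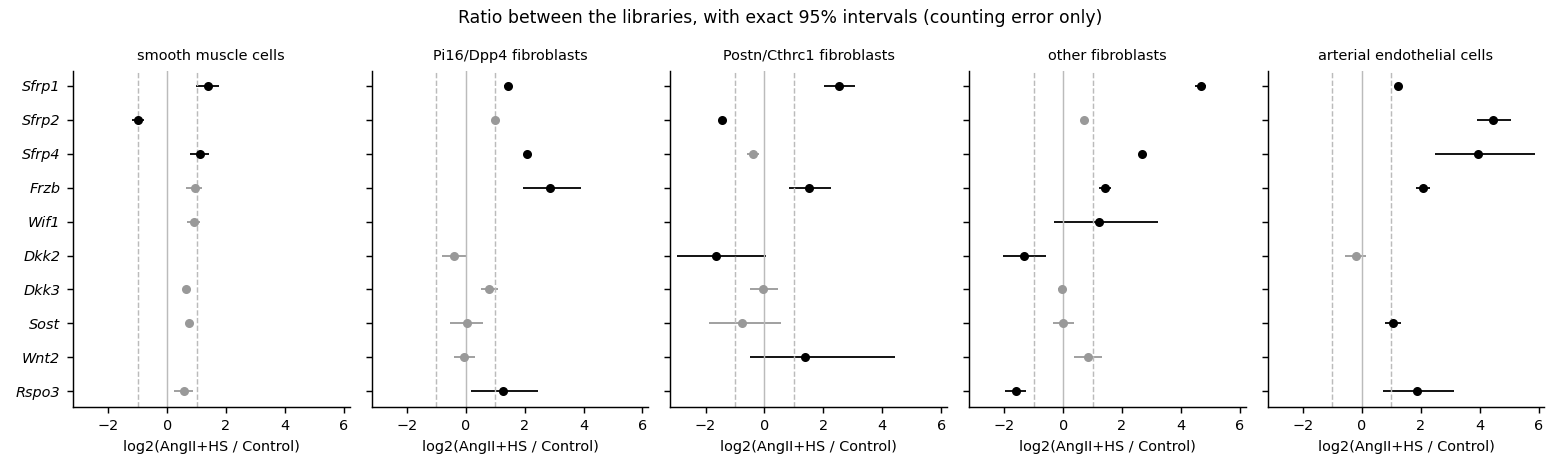
Points give the log2 ratio of AngII+HS over Control (x axis) for each gene in the 5 cell groups, with exact 95% intervals; black marks ratios past 2-fold (dashed lines), grey the others, genes under 20 UMIs are left out, and Rspo3 in Postn/Cthrc1 fibroblasts, with 0 Control UMIs, is not drawn. The highest drawn ratio is 4.67 for Sfrp1 in other fibroblasts and the lowest -1.63 for Dkk2 in Postn/Cthrc1 fibroblasts.

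Summed over the fibroblasts, the level of Dkk2 was lower in AngII+HS, while the unthinned shares of cells with a Dkk2 UMI overlapped within counting error. Over the 3 classes it had 19.6 and 6.93 CPM (172 and 164 UMIs), 2.83-fold lower in AngII+HS (log2 ratio -1.501, interval -1.82 to -1.18). This sum mixes the level within a class with the share of that class. Pi16/Dpp4 fibroblasts held 134 of the 172 Control UMIs, and they were 763 of 1909 Control but 722 of 3704 AngII+HS fibroblasts. Subcluster 3 held 66.4 CPM in Control (33 UMIs) and 4.04 CPM in AngII+HS (25 UMIs), the same subcluster in which Sfrp1 was highest. The 33 Control UMIs lay in 7 of the 1054 other fibroblasts and the 34 UMIs of AngII+HS in 23 of 1765, so few cells carried the level, and with equal weight per cell the log2 ratio in other fibroblasts was -0.62. Over the 3 classes a Dkk2 UMI was found in 2.41% of Control and 2.32% of AngII+HS cells. These shares were taken before thinning, at unequal median depths of 4192 and 5370.5 UMIs. Pi16/Dpp4 fibroblasts as a class had 36.1 and 27.4 CPM (-0.40, interval -0.80 to 0.00), which was made of 48.0 and 26.4 CPM in subcluster 1, led by Inmt, C7 and Penk, and of 10.9 and 32.0 CPM in subcluster 6, led by Cd55 and Dpp4. In the Postn/Cthrc1 class Dkk2 rested on 5 Control UMIs (15.5 and 4.99 CPM) and turned to a ratio of 0.92 when no doublets were removed.

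Dkk3, Sost and Wnt2 were closer to level in fibroblasts. Dkk3 had 146 and 141 CPM in other fibroblasts (log2 ratio -0.04, interval -0.17 to 0.09), 117 and 114 CPM in Postn/Cthrc1 fibroblasts and 47.5 and 82.8 CPM in Pi16/Dpp4 fibroblasts (0.80, interval 0.52 to 1.09). In Control, Dkk3 in other fibroblasts (135 to 157 CPM) and in smooth muscle cells (149 to 155 CPM) was not separable by counting error, whereas in AngII+HS smooth muscle cells stood higher. Sost lay between 12.7 and 21.6 CPM in the 3 classes, under the T and B cells, and was read as background there. Wnt2, the only Wnt ligand among the members, had 39.4 and 37.9 CPM in Pi16/Dpp4 fibroblasts (log2 ratio -0.06, interval -0.41 to 0.30) and 9.71 and 17.4 CPM in other fibroblasts (0.84, interval 0.37 to 1.33). Its ratio in the Postn/Cthrc1 class rested on 2 Control UMIs (6.18 and 16.2 CPM, 1.39, interval -0.49 to 4.45).

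Among the 3 fibroblast classes, Rspo3 was counted mostly in other fibroblasts in Control and mostly in the Postn/Cthrc1 class in AngII+HS. Rspo3 stood higher in both libraries in the unnamed fibroblast subcluster 5, outside the classes, at 97.4 and 129 CPM (log2 ratio 0.41, interval -0.16 to 1.03). In other fibroblasts it had 31.7 CPM in Control (150 UMIs) and 10.3 CPM in AngII+HS (126 UMIs), 3.07-fold lower (log2 ratio -1.62, interval -1.97 to -1.27), mostly in subcluster 0 (41.6 and 14.6 CPM). In the Postn/Cthrc1 class no UMI was counted in Control, where 3 UMIs would be 9.28 CPM, and 455 UMIs (55.4 CPM) were counted in AngII+HS. With that floor of 3 UMIs the level was 5.97-fold higher (log2 ratio 2.58), and the exact lower limit of the log2 ratio was 2.27. Subcluster 2 held 43.9 CPM and subcluster 7 72.8 CPM of it in AngII+HS. A Rspo3 UMI was found in 15.5% of these AngII+HS cells and 4.13% after thinning, against 0 of 85 thinned Control cells, for which the exact upper limit is 4.25%. T and B cells held 1.07 and 1.02 CPM. Pi16/Dpp4 fibroblasts had 2.97 and 7.08 CPM from 11 and 23 UMIs (1.26, interval 0.16 to 2.44). The lower value in other fibroblasts shrank to a log2 ratio of -0.22 when a marker score of 1 was asked for the named classes, which moved most of their cells into this one, an alternative chosen after the data were seen, and to -0.41 with doubled doublet removal.

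By count, Pi16/Dpp4 fibroblasts had 4 of 9 read members past 2-fold higher and none lower, where 9.27% of the 11710 genes read were past 2-fold (3.89% higher, 5.39% lower) and the median log2 ratio over all genes was -0.14. The 4 were Sfrp1, Sfrp4, Frzb and Rspo3. Other fibroblasts had 4 of 10 higher (Sfrp1, Sfrp4, Frzb and, on 4 and 24 UMIs, Wif1) and 2 lower (Dkk2 and Rspo3), where 17.1% of genes were past 2-fold, 6.71% higher and 10.4% lower. Postn/Cthrc1 fibroblasts had 4 higher (Sfrp1, Frzb, Wnt2 and Rspo3) and 2 lower (Sfrp2 and Dkk2) of 9, but there 31.5% of all genes were past 2-fold, 19.9% higher and 11.7% lower. Scaling by trimmed mean of M values (TMM) raised every log2 ratio by 0.13, 0.22 and 0.28 in the Pi16/Dpp4, Postn/Cthrc1 and other fibroblasts, and by -0.01 and -0.03 in smooth muscle and arterial endothelial cells.

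Arterial endothelial cells carried the highest Sfrp1 and Frzb levels of the named cell types in both libraries, and both were higher in AngII+HS. Sfrp1 had 664 CPM in Control (1750 UMIs) and 1555 CPM in AngII+HS (3259 UMIs), 2.34-fold (log2 ratio 1.23, interval 1.14 to 1.31). Frzb had 72.1 and 303 CPM (190 and 636 UMIs), 4.21-fold (2.07, interval 1.84 to 2.31). In Control the Frzb interval of arterial cells (62.2 to 83.2 CPM) overlapped that of Postn/Cthrc1 fibroblasts (33.0 to 88.0 CPM), and in AngII+HS the next level, 157 CPM, was well apart. After thinning, 40.3% and 60.7% of arterial cells had an Sfrp1 UMI (67.2% and 77.2% unthinned, the median cell holding 4498.5 and 4742 UMIs), and 6.09% and 19.0% a Frzb UMI (23.2% and 49.6% before, T and B cells 0% and 0.496% after thinning).

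Sfrp2 was near background in Control arterial cells and well above it in AngII+HS. It had 10.6 CPM in Control (28 UMIs) and 235 CPM in AngII+HS (492 UMIs), 22.1-fold (log2 ratio 4.46, interval 3.91 to 5.07), beside 4.28 and 29.8 CPM in T and B cells. The 5 fibroblast markers moved with it, at 209 and 772 CPM in arterial cells and 117 and 685 CPM in T and B cells, and their part in the ratio was not tested. With free RNA subtracted the log2 ratio of Sfrp2 was 5.01, and without doublet removal 3.81. In thinned cells 1.05% and 10.8% had an Sfrp2 UMI (3.89% and 25.5% before thinning), and 0.881% and 3.07% of T and B cells did. Sfrp4 in arterial cells, at 1.52 and 23.4 CPM, did not exceed the T and B cells of AngII+HS at 20.9 CPM beyond counting error and was read as background.

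Sost and Rspo3 were also higher in arterial cells of AngII+HS, at lower levels. Sost had 69.5 CPM (183 UMIs) and 145 CPM (305 UMIs), a log2 ratio of 1.07 (0.80 to 1.34) that was 0.95 without doublet removal, above T and B cells (26.8 and 36.1 CPM), capillary endothelial cells (25.7 and 20.7 CPM) and venous endothelial cells (38.5 and 13.6 CPM). Neutrophils held 25.8 and 65.0 CPM of Sost. The 5 smooth muscle markers moved with the arterial Sost value only in sum, at 778 and 1221 CPM in arterial cells against 866 and 840 CPM in T and B cells. Tagln (236 and 565 CPM) and Acta2 (405 and 600 CPM) were higher in arterial cells of AngII+HS. Myh11 (81.3 and 25.3 CPM), Cnn1 (24.3 and 12.9 CPM) and Lmod1 (30.8 and 17.2 CPM) were lower. Their part in the Sost ratio was not tested. Rspo3 had 3.42 and 12.4 CPM from 9 and 26 UMIs (1.86, interval 0.72 to 3.14). Dkk2 differed by less than its counting error, with 58.1 and 50.1 CPM (log2 ratio -0.21, interval -0.59 to 0.15). Of the 7 members read in arterial cells 6 were past 2-fold higher and none lower, where 11.3% of the 11020 genes read were past 2-fold, 6.72% higher and 4.57% lower. These 6 included Sfrp4, which was read as background, and Sost, which was under 2-fold without doublet removal. Dkk3 (9 and 10 UMIs), Wif1 (0 and 1) and Wnt2 (0 and 1) were under 20 UMIs.

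The arterial cells were of separate kinds with respect to these genes. Subclusters 1 and 3 carried Sfrp1 (778 and 1880 CPM, and 747 and 1629 CPM) and Frzb (79.6 and 337 CPM, and 85.5 and 355 CPM). Subcluster 5, led by Dkk2, Alpl and Sema3g (71 and 59 cells), had 36.1 and 11.8 CPM of Sfrp1 from 13 and 3 UMIs, and 3 and 0 UMIs of Frzb. Dkk2 stood there at 344 and 236 CPM (log2 ratio -0.55, interval -1.02 to -0.09), against 10.4 and 6.86 CPM in subcluster 1 and 15.5 and 46.2 CPM in subcluster 3. Dkk2 leads subcluster 5, although it was kept out of the variable genes, and its level there is a description. Per thinned cell, Dkk2 was found in 0.521% of Control cells with an Sfrp1 UMI (1 of 192) and 5.28% of those without (15 of 284), and in 1.34% (3 of 224) and 11.03% (16 of 145) in AngII+HS. Frzb, on the other hand, was found in 25.9% of AngII+HS cells with an Sfrp1 UMI and in 8.28% of those without, and in 7.81% and 4.93% in Control. Sfrp2 in AngII+HS lay in subclusters 1 and 3 as well (288 and 232 CPM), and subcluster 5 had 27.5 CPM. The Sost difference followed the same division, with 78.0 and 169 CPM in subcluster 1, 61.2 and 152 CPM in subcluster 3, and 63.8 and 31.4 CPM in subcluster 5.

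**Figure D5:**
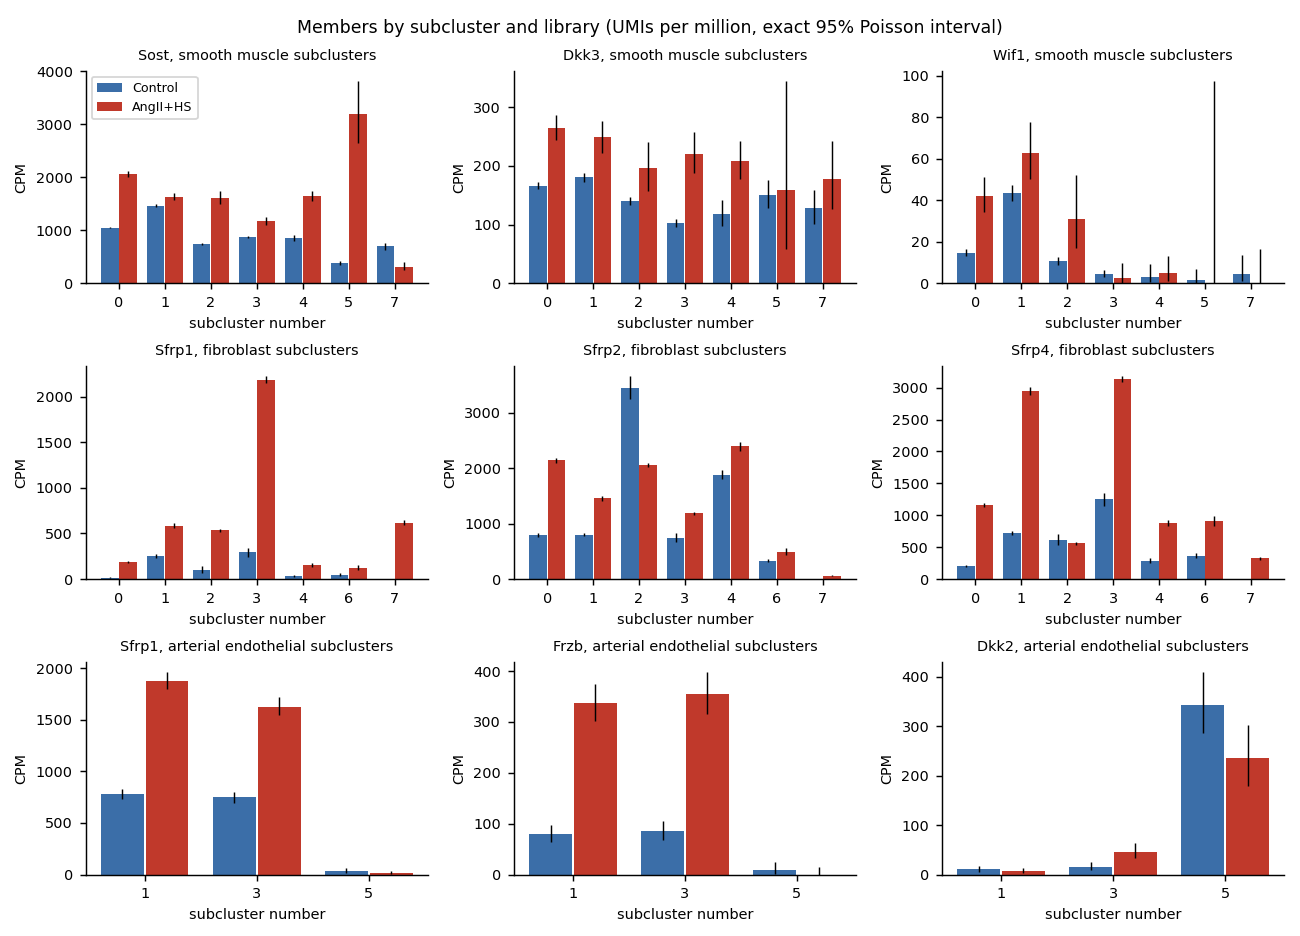
Bars give CPM (y axis) by subcluster number (x axis) for Sost, Dkk3 and Wif1 in smooth muscle, Sfrp1, Sfrp2 and Sfrp4 in fibroblasts and Sfrp1, Frzb and Dkk2 in arterial endothelium, blue for Control and red for AngII+HS, with exact 95% Poisson intervals; fibroblast subcluster 7 had no Control cell. Fibroblast subcluster 3 held 2187 CPM of Sfrp1 in AngII+HS, and arterial subcluster 5 held 344 and 236 CPM of Dkk2 but little Sfrp1.

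Outside these groups a few cell types carried members above background. Neural cells held 404 and 429 CPM of Sfrp1 (log2 ratio 0.09, interval -0.15 to 0.33), in Control between the arterial cells and the Pi16/Dpp4 fibroblasts. Lymphatic endothelial cells held the highest Wnt2 level in Control, 65.5 CPM (52.0 to 81.5), above the 39.4 CPM (33.2 to 46.3) of Pi16/Dpp4 fibroblasts, and 19.8 CPM in AngII+HS (log2 ratio -1.72, interval -2.57 to -0.96). Their Rspo3 stood at 26.7 and 59.5 CPM (1.16, interval 0.50 to 1.83), and it was not separable from other fibroblasts in Control or from Postn/Cthrc1 fibroblasts in AngII+HS. Venous endothelial cells had 4 and 41 UMIs of Dkk2 (4.53 and 18.0 CPM).

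The members can be set beside the rest of the pathway, from lists of Wnt ligands, receptors, other secreted modulators, intracellular components and target genes. Of 18 further ligands, 10 were read over all fibroblasts, with 6 past 2-fold lower (against 9.42% of all genes read), among them Wnt10b (28.2 and 4.52 CPM) and Wnt11 (21.4 and 6.67 CPM), and 1 higher (against 7.30% of all genes read), Wnt4 (3.65 and 34.6 CPM, log2 ratio 3.24). In smooth muscle 3 of 7 ligands were lower (against 12.1% of all genes read), Wnt11 (4.08 and 1.18 CPM), Wnt5a (3.23 and 1.51 CPM) and Wnt2b (39 and 0 UMIs), and none higher, and in arterial cells no ligand was read. Wnt2b was counted as lower without a floor for its 0 UMIs, and among smooth muscle ligands with at least 50 UMIs 2 of 6 were lower. Of 21 receptor genes, none of the 19 read in smooth muscle was past 2-fold, and there the co-receptors that sclerostin binds were near level, with Lrp5 at 28.3 and 27.1 CPM (log2 ratio -0.06, interval -0.31 to 0.17) and Lrp6 at 77.2 and 76.2 CPM (-0.02, interval -0.16 to 0.12). In arterial cells 2 of 16 receptors were past 2-fold higher (against 6.72% of all genes read), Ror1 (20.1 and 85.4 CPM, 2.09) and Kremen1 (8.73 and 18.6 CPM). Over all fibroblasts 2 of 18 were higher (against 7.30% of all genes read), Lgr5 (3.65 and 17.9 CPM), which binds R-spondins, and Fzd6. Another 2 were lower (against 9.42%), Lrp4 (18.6 and 9.17 CPM) and Lgr6, and among receptors with at least 50 UMIs 1 of 17 was lower. None of the 12 intracellular components was past 2-fold in any of the 5 groups. Among target and feedback genes in smooth muscle, where 5.41% of all genes were past 2-fold higher and 12.1% lower, 2 of 11 were higher (Nkd2 and Ccnd1) and 3 lower (Myc at 119 and 35.3 CPM, Tnfrsf19 and Rnf43), and Axin2, which responds to β-catenin in many tissues, had 4.62 and 3.36 CPM (-0.46, interval -1.19 to 0.20). In arterial cells 2 of the 4 target and feedback genes read were higher and 0 lower (against 6.72% and 4.57% of all genes read). Postn/Cthrc1 fibroblasts had 1 higher and 3 lower of 9 (against 19.9% and 11.7%). None of the 8 read in Pi16/Dpp4 or the 9 read in other fibroblasts was past 2-fold. Igfbp4, which also binds Wnt co-receptors, had 73.1 and 319 CPM in smooth muscle (2.13) beside 48.2 and 86.3 CPM in T and B cells.

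Sost being a gene of bone and of contractile cells, both kinds of genes were read beside it in smooth muscle. Of the 8 contractile genes none was past 2-fold (median log2 ratio 0.19). Of 14 genes of bone and cartilage 10 were read, with 3 higher (against 5.41% of all genes read), Acan (7.23 and 41.5 CPM), Comp (9.22 and 44.7 CPM) and Spp1 (0.554 and 290 CPM, where T and B cells had 0 and 81.6 CPM), and 1 lower (against 12.1% of all genes read), Bglap (21 and 1 UMIs). Hoxa5 was the single HOX gene of 11 past 2-fold, with 55.4 and 25.7 CPM. The genes whose log levels ran most like Sost over 29 points, each a cell type of 1 library, among 14601 genes, were Npnt (r = 0.96), Acta2 (0.96) and Tagln (0.95), and those most like Sfrp1 were Frzb (0.84), Ecrg4 and Rsph9. For Sfrp4 they were Fbln1 (0.97), Cpxm1 and Ccl19, for Sfrp2 Serpinf1 (0.94), Clec11a and Dcn, and for Wnt2 Lbp (0.94), Il33 and Lrrn4cl. These coefficients describe points that share libraries and depth, and they carry no p.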

How the data were processed

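Single-cell RNA sequencing (10x Genomics, 3′ chemistry) was carried out on suprarenal abdominal aorta, 1 library per condition. The deposited UMI counts per gene and cell barcode were made by the authors with Cell Ranger (8.0.1 per the file headers) and were not normalised. The study names GRCm39 and the labels mm10, so coordinates were looked up by gene ID, of which 98.5% were found on GRCm39. The barcode list recorded with each library matched in length the matrix of the other, and served only to count shared barcodes.

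A cell was kept, by the study's limits, if it had 500 or more UMIs, 200 or more genes and less than 20% of its UMIs from mitochondrial genes. Doublets were removed by Scrublet score in scanpy 1.11.5 at 0.8% per 1000 cells (1019 and 4826 cells). The libraries were integrated in Seurat 5.3.0 (2000 variable genes, 30 components, resolution 0.8, with 86 Wnt genes kept out of the variable genes), and fibroblasts, vascular endothelial cells and smooth muscle cells were clustered again (20 components, resolution 0.4). Clusters were named by marker lists, with thresholds settled after the clusters were seen, including a score of at least 0.5 for a fibroblast class, and 3 clusters stayed unnamed. UMIs were summed per cell group and library and given as CPM, with exact 95% Poisson or binomial intervals. A gene was called past 2-fold if it had at least 20 UMIs. Where a library had 0 UMIs, a floor of 3 UMIs was used for ratios of members, but not in the counts of list genes and of all genes past 2-fold. The calculation was tested on simulated data. No test between conditions was possible. All 10 members were named, along with leading genes of clusters, the 3 genes most alike per member, and list genes past 2-fold. The members and lists were chosen with earlier results of these data known. Alternatives are given at the end.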

Additional observations from a re-analysis of the deposited data

Results flagged for a closer look

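Of the members, 2 lay past 2-fold in opposite directions in different cell groups, and the difference between the groups was not tested because each condition had 1 library. The share of all genes that did so was not counted, so whether 2 is many cannot be told. Within single groups, 9.27% (Pi16/Dpp4 fibroblasts) to 31.5% (Postn/Cthrc1 fibroblasts) of the genes read were past 2-fold. Sfrp2 had a log2 ratio of 4.46 in arterial endothelial cells but -1.003 in smooth muscle cells and -1.45 in Postn/Cthrc1 fibroblasts, both of which lay under 2-fold with doubled doublet removal (-0.97 and -0.05). Rspo3 had a log2 ratio of -1.62 in other fibroblasts but 1.26 in Pi16/Dpp4 fibroblasts and 1.86 in arterial endothelial cells. In Postn/Cthrc1 fibroblasts, where Control had no UMI, it was 2.58 with a floor of 3 UMIs, and the exact lower limit was 2.27.

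A fibroblast-rich cluster of low depth (number 9, 652 Control and 456 AngII+HS cells, median 886.5 and 1674 UMIs), left out of the comparisons because it stayed unnamed, also carried members above the level in Control. It held 232 CPM of Sfrp1, 2397 CPM of Sfrp2, 1595 CPM of Sfrp4 and 58.3 CPM of Frzb in AngII+HS.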

How the results depend on the processing

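Over 16 alternatives, 582 single log2 ratios of members were recomputed, and 42 of them had the opposite sign, 8 for members past 2-fold and 34 for members below it, among these Sfrp4 in Postn/Cthrc1 fibroblasts (up to 2.32) and Dkk3 in Pi16/Dpp4 fibroblasts (down to -0.46). Of 334 values for members past 2-fold, 326 kept their direction and 288 stayed past 2-fold. The log2 ratio of Sost in smooth muscle cells was 0.59 without doublet removal, 0.55 with doubled removal, 0.34 merged without integration, 0.58 at resolution 1.2 and 0.67 with equal weight per cell. Members past 2-fold numbered 1 in smooth muscle cells without doublet removal and 3 in other fibroblasts with doubled removal, 1 in Pi16/Dpp4 fibroblasts merged without integration, and, with subclusters weighted as in Control, 1 in smooth muscle cells and 3 in Postn/Cthrc1 fibroblasts. In Postn/Cthrc1 fibroblasts the ratio reversed for Dkk2 without doublet removal (0.92), for Frzb, Wnt2 and Rspo3 merged without integration (-1.37, -3.93 and -3.42, from 1 Control cell), and for Wnt2 at resolution 0.4 (-0.70) and with subclusters at resolution 0.8 (-1.36). With free RNA subtracted, Sfrp1 and Sfrp4 in smooth muscle cells reversed (-3.14 and -3.74), values set by the floor of 3 UMIs in AngII+HS. A class score of 1 left the Postn/Cthrc1 class with no Control cell and no value. The weighting as in Control, the class score of 1, the low-depth cluster counted among other fibroblasts and the smooth muscle cells without the subcluster led by Igkc and Fgf14 were chosen after seeing the data. The cause of these changes was not tested. No paired analysis was possible because each condition had 1 library. Depth limits the values that rest on few UMIs, such as those of Wif1 and Wnt2 in arterial cells and of Dkk2 in smooth muscle cells.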

Other observations

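Among cell types outside the comparisons, macrophages held members at or below the free RNA gauge of the AngII+HS library, with Sfrp1 at 1.81 and 11.4 CPM, Sfrp4 at 2.72 and 14.4 CPM and Frzb at 0 and 3.12 CPM. Neutrophils stood above that gauge, with 65.0 CPM of Sost, 43.0 CPM of Sfrp2 and 37.5 CPM of Sfrp4 in AngII+HS. Capillary endothelial cells differed from arterial ones in Sfrp1, with 15.1 and 12.9 CPM from 10 and 20 UMIs, and venous cells had 7.93 and 7.45 CPM. An unnamed fibroblast subcluster led by Rgs5 and Notch3 (number 5, 44 and 434 cells) had the highest Rspo3 level of the fibroblast subclusters, 97.4 and 129 CPM, with 462 and 145 CPM of Sfrp4 (log2 ratio -1.68, interval -1.97 to -1.37). These values were chosen after they were seen, and no explanation was tested.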
